A study of Mus musculus with 17 samples.

Results

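The 26 genes described here encode the cholesterol synthesis pathway of the liver cell and the SREBP2 system that sets its level. They were chosen by symbol, and 26 of 26 were found among the 23461 genes of the count table. By role they comprised 6 genes of the mevalonate steps, 3 of the prenyl steps, 10 of the sterol steps, 4 of SREBP2 control and 3 of cholesterol handling. RNA was sequenced from hepatocytes that had been sorted by FACS from male mice aged 2 to 3 months. The wild type (WT) animals were left untreated (5 samples) or were given carbon tetrachloride, CCl4, a solvent that injures the liver (5 samples). The animals labelled as knockouts (KO) of Yap and Taz, the transcriptional coactivators of the Hippo pathway encoded by Yap1 and Wwtr1, were likewise untreated (4 samples) or given CCl4 (3 samples). CCl4 was dosed at 1 ug/g, 7 times with 3 days between doses, and cells were collected 3 days after the last dose. The labels name neither the knockout alleles nor what drove the deletion, and they do not say whether each sample came from a separate animal, so p-values measure the spread between these samples.

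Hepatocytes make cholesterol from acetyl-CoA through mevalonate, then through prenyl diphosphates to squalene, and finally through a series of sterols. Transcription of the pathway's genes is raised by SREBP2, a membrane-bound factor that Scap escorts to the Golgi for cleavage when sterols are scarce and that the Insig proteins hold in the endoplasmic reticulum when sterols are plentiful. Because 1 factor serves the whole route, its genes are known for moving as a set with feeding, sterol load and drugs. The bulk profiles cannot tell fewer cells of a type from less RNA per cell.

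A few facts of the libraries bear on what follows. Totals ran from 11266420 to 24775863 counts per sample. Yap1 ranged from 37.4 to 73.6 CPM (read counts scaled to a common library size) in the 10 WT samples and from 0.536 to 8.04 in the 7 KO samples, and Wwtr1 from 9.86 to 23.4 against 1.20 to 7.09, so that transcripts of both genes remained in KO samples at lower levels. Wwtr1 was called higher with CCl4 in the KO (log2 fold change 1.33 ± 0.33 (SE), edgeR adjusted p = 0.00918), but not without the CCl4 KO replicate 3 (0.94, adjusted p = 0.0754). The summed level of 9 hepatocyte markers lay between 97150 and 152483 CPM. The CCl4 KO replicate 3 stood apart: 34.3% of its counts were mitochondrial, and its 15 macrophage markers summed to 5426 CPM, against 120 and 337 CPM in the other two CCl4 KO samples. These markers summed to 1.92 to 18.6 CPM in untreated WT, 13.2 to 125 CPM in CCl4 WT and 0.342 to 10.1 CPM in untreated KO samples. In the untreated KO replicate 2, 12 of the 15 were at 0, and in the untreated WT replicate 1, 6 were. The defining Ptprc and Adgre1 were at 0 in both and in the untreated WT replicate 4. Ptprc was also at 0 in the untreated WT replicates 3 and 5. The untreated WT replicate 5 held 30.7% mitochondrial counts. The calls, the medians over the members and the spread of the enzymes are given without these libraries where that moves them.

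SREBP2 binds sterol regulatory elements and works beside general factors, among them NF-Y, which reads the CCAAT box, and Sp1, which reads GC boxes. Promoter entries from RefSeq (GRCm38.p6) were available for 21 members, in windows of 300 bases from 250 bases before the start of transcription to 50 bases after it. CCAAT, searched on both strands, was present in at least 1 window of 19 of the 21 members (90.5%), against 41.1% of 27025 genes and 43.2% of 9964 genes that were also tested for expression, counted per gene in the same way. Some genes have several windows (Dhcr7 and Insig2 3 each, Pmvk and Scap 2 each): per window, CCAAT was in 19 of 27 for the members and in 37.4% of all 32851. GGGCGG was present in at least 1 window of 19 of the 21 members, against 66.8% of tested genes, and in 22 of the 27 windows. TCACNCCAC, a sterol element, was found in 1 member (Hmgcs1, 137 bases before the start), which is 4.76% of the members and 1.52% of tested genes. Its inner part CACNCCAC, which every match of the longer letters contains, was found in 3 members (Hmgcs1, Insig1, Acat2), 14.3% against 7.73%. The letters are a description of these windows, and other spellings of the element were not searched.

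The following promoter stretches, 5′ to 3′ on the strand of the gene, were chosen after the values were seen. Hmgcs1 (chr13:119690201-119690350, plus strand) and Mvk (chr5:114444119-114444268, plus) stand for the enzymes. Insig2 (chr1:121332590-121332739, minus) is shown because its own level was lowest in the untreated WT replicates 1 and 2. Scap (chr9:110333138-110333287, plus), Mylip (chr13:45389592-45389741, plus) and Tm7sf2 (chr19:6067880-6067909, minus) are the members called in a test. Capitals mark CCAAT on either strand (CCAAT or ATTGG) and, in Hmgcs1, the sterol element. Each holds the 150 bases before the start (for Insig2 and Scap, the most upstream of the annotated starts) and overlaps no annotated exon, except Tm7sf2, where 30 bases around the CCAAT box are shown and 2 annotated exons overlap.
Hmgcs1: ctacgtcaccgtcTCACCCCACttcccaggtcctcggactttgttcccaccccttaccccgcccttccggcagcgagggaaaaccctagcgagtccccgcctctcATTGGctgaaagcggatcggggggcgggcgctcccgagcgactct
Mvk: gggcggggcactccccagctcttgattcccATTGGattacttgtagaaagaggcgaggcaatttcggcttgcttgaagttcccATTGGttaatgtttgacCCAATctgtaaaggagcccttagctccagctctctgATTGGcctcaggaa
Insig2: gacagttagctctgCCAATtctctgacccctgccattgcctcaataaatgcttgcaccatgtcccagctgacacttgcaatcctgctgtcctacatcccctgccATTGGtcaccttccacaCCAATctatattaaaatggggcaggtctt
Scap: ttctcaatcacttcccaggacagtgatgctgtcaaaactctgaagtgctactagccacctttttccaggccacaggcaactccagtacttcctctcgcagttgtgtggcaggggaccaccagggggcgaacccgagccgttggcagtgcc
Mylip: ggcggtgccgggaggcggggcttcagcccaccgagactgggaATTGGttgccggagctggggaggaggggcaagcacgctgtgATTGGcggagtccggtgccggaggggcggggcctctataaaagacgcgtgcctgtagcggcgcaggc
Tm7sf2: ctcccagcgctgATTGGctactgtgctggg
Mvk carries 4 CCAAT boxes in its stretch and Insig2 carries 3. Scap carries none in either of its 2 windows of 300 bases, and Acat2 is the other member of the 21 with none.

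Differences between groups were tested with edgeR's quasi-likelihood F test over 13721 genes, all 26 members among them, with Benjamini-Hochberg adjustment. Genes with an adjusted p under 0.05 are named called. Levels are CPM on TMM-scaled library sizes. Few members passed. CCl4 in WT and the knockout without CCl4 each gave 0 called members of 26. CCl4 in the KO gave 1 higher (Mylip) and 2 lower (Tm7sf2, Scap), and the KO after CCl4 differed from WT after CCl4 in 1 higher (Mylip) and 1 lower (Tm7sf2). Of all tested genes, CCl4 in WT called 0.853% (0.576% higher, 0.277% lower) and the knockout without CCl4 0.933% (0.583% higher, 0.35% lower). CCl4 in the KO called 19% (12.1% higher, 6.96% lower) and the KO after CCl4 11.8% (7.62% higher, 4.21% lower). The members' 3 of 26 and 2 of 26 lie somewhat below these last backgrounds, a gap of few genes that was not tested. The contrast of the genotypes' CCl4 effects called 0 of 26 members, against 1.09% of all genes (0.794% higher, 0.299% lower).

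**Figure D1:**
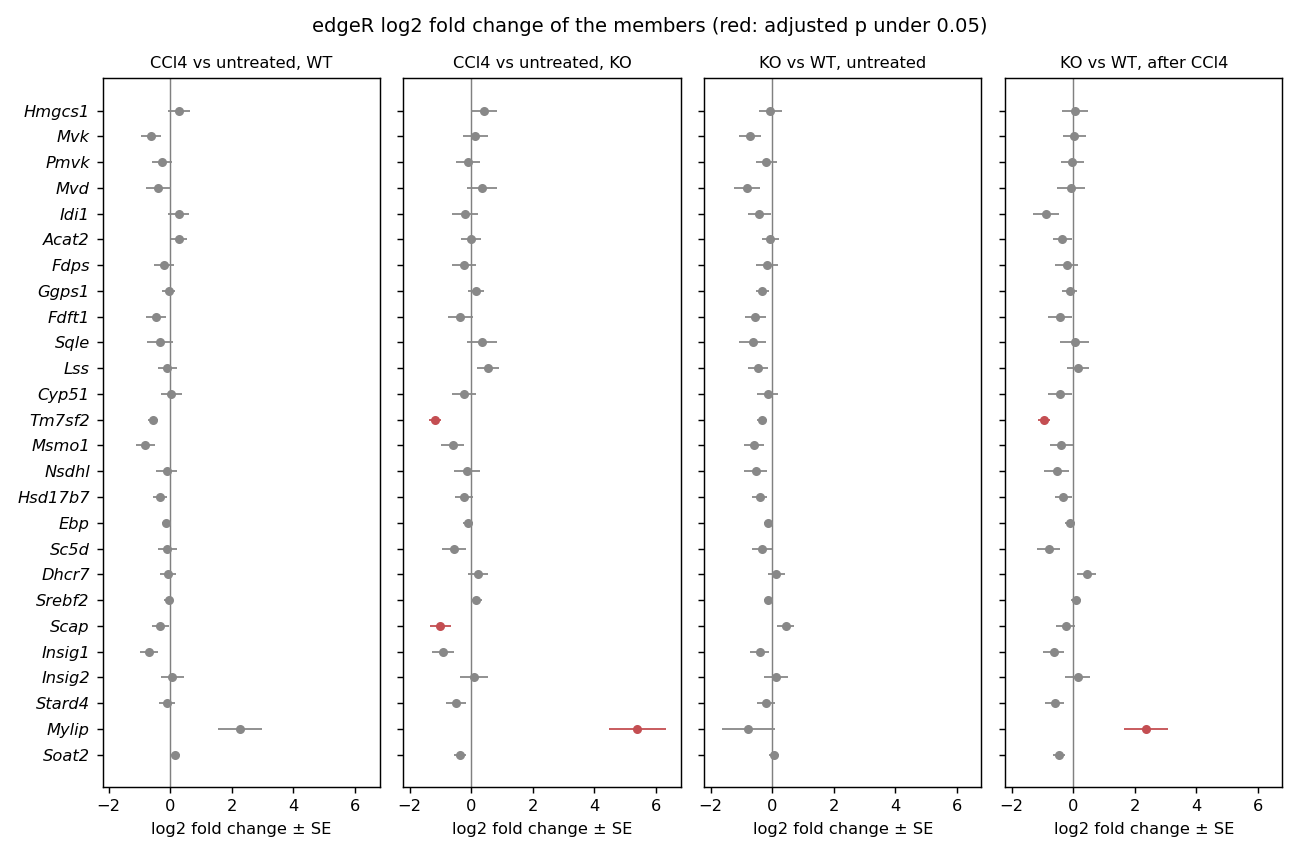
Log2 fold change (x axis) of each of the 26 members (rows, ordered by role) in 4 comparisons, with bars of 1 standard error; red points have an adjusted p under 0.05. Most points lie within 1 log2 unit of 0, and the red points are Tm7sf2, Scap and Mylip.

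The counts of 0 were further read at looser settings. For CCl4 in WT, edgeR gave 4 members an unadjusted p under 0.05 (Mylip above 0; Tm7sf2, Msmo1 and Insig1 below), DESeq2 called 1 (Tm7sf2, adjusted p = 0.0384) and limma voom 0. For the knockout without CCl4, 0 members had an unadjusted p under 0.05, and DESeq2 and voom called 0. For the difference of CCl4 effects, 3 members had an unadjusted p under 0.05 (Mylip, Tm7sf2 and Soat2), and DESeq2 and voom called 0. DESeq2 gave no adjusted p for Mylip in any comparison.

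The medians over the 26 members were below 0 in the 4 comparisons between groups. The median log2 fold change was -0.12 for CCl4 in WT, -0.12 for CCl4 in the KO, -0.32 for the untreated KO against WT and -0.22 for the KO against WT after CCl4. The medians of all tested genes were -0.01, 0.01, -0.01 and 0.04. In the untreated KO 22 of 26 members were below 0, and of the 19 synthesis enzymes 18 were, with a median of -0.33, but none of the 26 passed the test. The single enzyme above 0 was Dhcr7, at 0.14 ± 0.28 (SE). Single libraries moved these medians. For CCl4 in the KO the median was 0.05 without replicate 3 and -0.43 without replicate 2 of the CCl4 KO group, and for the KO against WT after CCl4 it was -0.09 and -0.50 without the same replicates. For CCl4 in WT it ran from -0.22 without the untreated WT replicate 5 to -0.04 without replicate 1. For the untreated KO against WT it ran from -0.41 without the untreated KO replicate 2 to -0.20 without the untreated WT replicate 4.

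**Figure D2:**
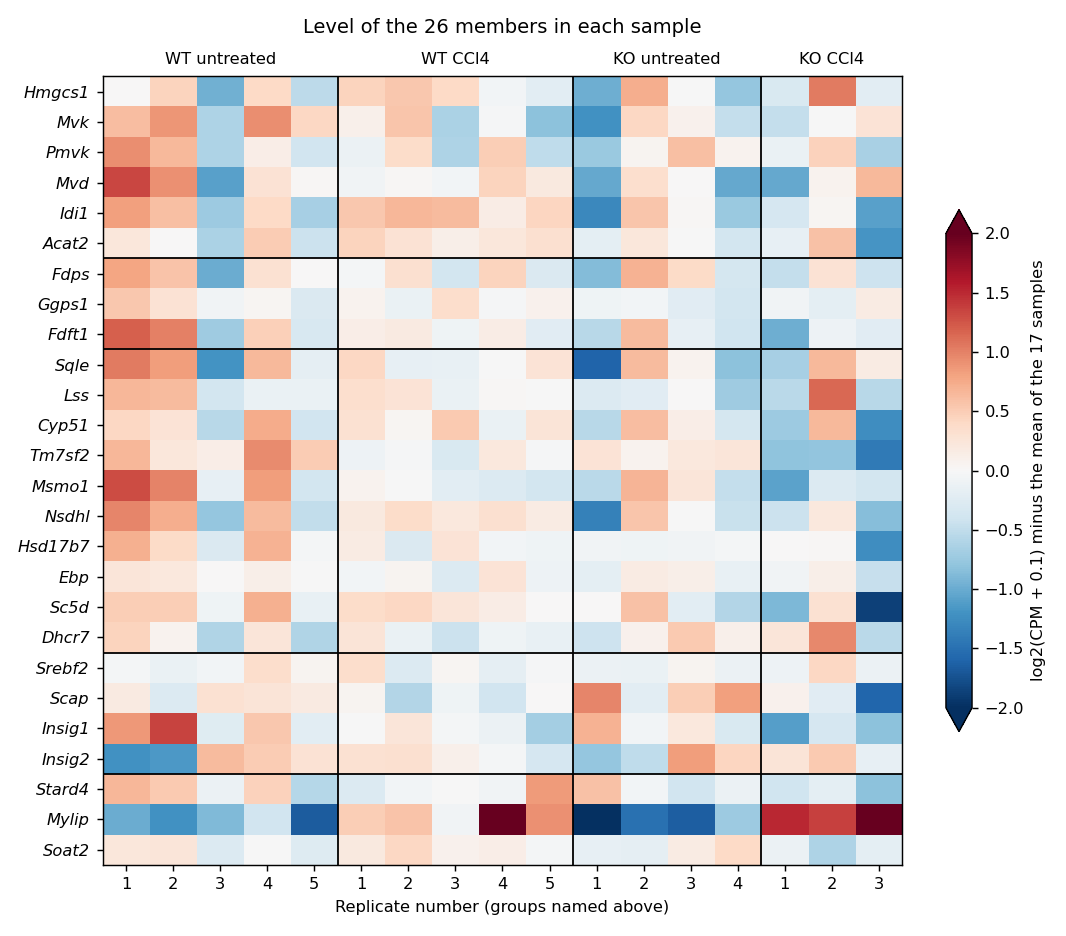
Level of each member (rows, separated by role) in each of the 17 samples (columns, by group), as log2(CPM + 0.1) minus its mean over all samples; red is above and blue below that mean, and the scale ends at 2 log2 units. Whole columns of enzymes run red or blue together, such as untreated WT replicates 1 (high) and 3 (low), and Mylip is red in the CCl4 groups.

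The mevalonate steps join acetyl-CoA units and turn mevalonate into the activated prenyl unit. None of the 6 genes was called in any of the comparisons. Hmgcs1, the synthase that makes HMG-CoA, measured 180 ± 68.9 CPM (SD, n = 5) in untreated WT, 219 ± 47.8 (n = 5) in CCl4 WT, 172 ± 96.6 (n = 4) in untreated KO and 228 ± 129 (n = 3) in CCl4 KO samples. The gene of smallest p was Idi1, the isomerase of that unit. Idi1 read 221, 190.3, 75.8, 166 and 79.1 CPM in untreated WT samples and 181, 198, 195, 139 and 169 CPM in CCl4 WT samples. It read 51.0, 185, 128 and 75.3 CPM in untreated KO samples and 99.2, 129 and 58.8 CPM in CCl4 KO samples. The 3 CCl4 KO samples lay below all 5 CCl4 WT samples, a log2 difference of -0.89 ± 0.41 (SE) that was not called (edgeR adjusted p = 0.189). It was -0.63 without the CCl4 KO replicate 3 (adjusted p = 0.539). The others, Mvk and Pmvk, which phosphorylate mevalonate in turn, Mvd, which decarboxylates the product, and Acat2, the cytosolic acetoacetyl-CoA thiolase, had log2 fold changes between -0.81 and 0.35 in the 4 comparisons of groups.

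The prenyl steps couple those units. Fdps makes farnesyl diphosphate, Ggps1 extends it for protein prenylation, and Fdft1, squalene synthase, commits it to sterols. None of the 3 was called, and Fdft1 had the smallest p among them. Fdft1 read 167, 146, 44.5, 101 and 58.0 CPM in untreated WT, 79.2, 82.6, 68.3, 80.1 and 61.9 CPM in CCl4 WT, 49.4, 113, 64.7 and 54.9 CPM in untreated KO and 36.8, 67.3 and 61.9 CPM in CCl4 KO samples. The groups overlapped in each comparison, and the largest difference, the untreated KO against WT, was -0.55 ± 0.35 (SE; edgeR adjusted p = 0.744). Ggps1, which leaves the sterol route, had log2 fold changes between -0.32 and 0.16, and Fdps between -0.24 and -0.17.

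The sterol steps run from squalene to cholesterol. Tm7sf2, a sterol reductase of the steps after lanosterol, was the only enzyme called. It read 118, 87.6, 81.3, 144 and 106 CPM in untreated WT samples, 69.6, 73.2, 60.3, 86.1 and 73.2 CPM in CCl4 WT samples, 89.9, 77.9, 85.8 and 88.3 CPM in untreated KO samples, and 42.6, 42.9 and 27.9 CPM in CCl4 KO samples. The 3 CCl4 KO samples were the lowest of all 17 and did not overlap any other group. CCl4 lowered Tm7sf2 in the KO by a log2 fold change of -1.17 ± 0.21 (SE), 2.26-fold lower (edgeR adjusted p = 0.00113). The call held when each of the 17 samples was left out in turn, with values from -1.28 to -0.997. After CCl4 the KO was lower than WT by -0.94 ± 0.20 (1.91-fold lower, adjusted p = 0.00644). Without the CCl4 KO replicate 3 that second difference was -0.76 with an adjusted p of 0.0558. The fall in WT with CCl4 was smaller, -0.57 ± 0.17 (adjusted p = 0.130), and the contrast of the genotypes' CCl4 effects, -0.61 ± 0.26, was not called (adjusted p = 0.238).

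Tm7sf2 shares its strand and part of its locus with Vps51, so reads could be split between them. Vps51, a vesicle tethering subunit, averaged 20.4 CPM in CCl4 KO and 23.1 CPM in untreated KO samples. Its log2 fold change with CCl4 in the KO was -0.19 ± 0.22 (edgeR adjusted p = 0.640), and after CCl4 it was 0.34 ± 0.21 in the KO against WT (adjusted p = 0.323). Mvd, Fdps, Ggps1, Fdft1, Lss, Cyp51 and Scap also overlap another annotated gene. The gene that overlaps Scap, 5830462I19Rik, averaged at most 1.11 CPM in any group.

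The other 9 sterol genes were not called. They are Sqle (squalene epoxidase), Lss (lanosterol synthase), Cyp51, Msmo1, Nsdhl and Hsd17b7 (removal of methyl groups), and Ebp, Sc5d and Dhcr7 (late isomerase, desaturase and reductase). Msmo1 had the largest difference in WT with CCl4, -0.81 ± 0.31 (edgeR adjusted p = 0.218), with the 2 groups overlapping. Sc5d was lower in the KO after CCl4 by -0.79 ± 0.37 (adjusted p = 0.190) and was called only when the CCl4 KO replicate 2, its highest sample of that group at 365 CPM, was left out, at -1.54 in that comparison and -1.31 for CCl4 in the KO. The Sc5d difference after CCl4 was -0.41 without the CCl4 KO replicate 3. Ebp was among the steadiest: its 95% intervals reached from -0.47 to 0.25 for CCl4 in the KO and from -0.45 to 0.24 for the KO against WT after CCl4. For Sqle the same intervals ran from -0.72 to 1.41 and from -0.97 to 1.08, so that differences of 2-fold were not resolved for that gene.

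**Figure D3:**
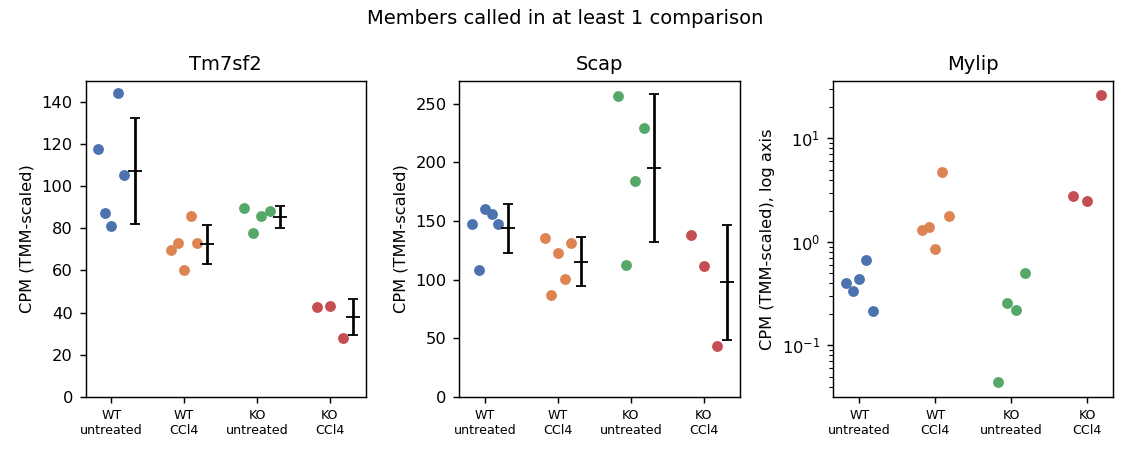
CPM of Tm7sf2, Scap and Mylip in each sample (dots) by group; bars are mean ± SD beside the dots, and the Mylip axis is logarithmic with no bar. The 3 CCl4 KO samples of Tm7sf2 lie below all others, those of Scap overlap the other groups, and 1 CCl4 KO sample of Mylip stands at 26.1 CPM.

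Among the control genes, Srebf2, which encodes SREBP2 itself, was nearly flat. Its means were 48.0 ± 6.65 CPM in untreated WT, 46.3 ± 8.18 in CCl4 WT, 44.1 ± 2.91 in untreated KO and 49.3 ± 10.8 in CCl4 KO samples (SD; n = 5, 5, 4 and 3). The 95% intervals of its log2 fold change ran from -0.37 to 0.26 for CCl4 in WT, from -0.22 to 0.54 for CCl4 in the KO, from -0.46 to 0.21 for the untreated KO against WT and from -0.27 to 0.45 for the KO against WT after CCl4. These are intervals for the transcript, and cleavage of the protein was not measured.

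Scap, the escort of SREBP2, read 148, 108, 160.5, 156 and 147 CPM in untreated WT samples and 136, 86.8, 123, 100.5 and 131 CPM in CCl4 WT samples. It read 256, 112, 184 and 229.8 CPM in untreated KO samples and 138, 111 and 43.4 CPM in CCl4 KO samples. CCl4 lowered it in the KO by -1.001 ± 0.33 (SE), 2.00-fold (edgeR adjusted p = 0.0428), although the lowest untreated KO sample lay between the CCl4 KO samples. The call depended on single samples and settings. It was lost in 13 of the 17 fits that left out 1 sample, and without the CCl4 KO replicate 3 the value was -0.65 (adjusted p = 0.151). It was also lost with unscaled library totals (adjusted p = 0.244), with no filter on low counts (0.0509), with the 2 groups fitted alone (0.214), with the replicate number as a block (0.0754) and without the 2 libraries of over 30% mitochondrial counts (0.163). In the KO without CCl4 it was 0.44 ± 0.28 above WT (adjusted p = 0.751).

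Insig1 and Insig2 retain Scap in the endoplasmic reticulum. Insig1 is itself a target of SREBP2, whereas liver Insig2 is known for falling with insulin. Insig1 read 467, 649, 216, 370.3 and 219.9 CPM in untreated WT samples, 254, 302, 248, 235 and 158 CPM in CCl4 WT samples, 412, 245, 294 and 206 CPM in untreated KO samples and 118, 201 and 144 CPM in CCl4 KO samples. The 3 CCl4 KO samples lay below all 4 untreated KO samples, a difference of -0.90 ± 0.36 that was not called (edgeR adjusted p = 0.0946). With the replicate number as a block it was called, at -0.997, and without the CCl4 KO replicate 3 it was -0.85 (adjusted p = 0.213). Insig2 read 48.4, 50.7, 174, 160.1 and 138 CPM in untreated WT and 66.2, 79.5, 200.7 and 151 CPM in untreated KO samples. It read 139, 141, 121, 109 and 89.3 CPM in CCl4 WT and 135, 163 and 100.3 CPM in CCl4 KO samples. Its means by group, 114 to 132 CPM, hardly differed, and its log2 fold changes were between 0.07 and 0.15, but both untreated groups held a low pair and higher samples with no value between 79.5 and 138 CPM.

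Per kilobase of exon, the Insig1 level exceeded the Insig2 level 10.8 and 14.4 times in the untreated WT replicates 1 and 2 and 1.39, 2.60 and 1.79 times in replicates 3, 4 and 5. The ratio was 6.99, 3.46, 1.64 and 1.53 in untreated KO samples. After CCl4 it lay between 1.99 and 2.42 in the 5 WT samples and at 0.987, 1.39 and 1.61 in the 3 KO samples. The CCl4 KO ratios were thus below every CCl4 WT ratio, and the untreated groups spread over a wider range than either CCl4 group.

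The handling genes hold the 1 member that rose. Mylip (also called Idol) encodes a ubiquitin ligase that marks lipoprotein receptors for breakdown and is induced by the oxysterol receptors LXR. It was scarce: its counts were 4, 4, 7, 9 and 3 in untreated WT, 21, 22, 24, 97 and 46 in CCl4 WT, 1, 3, 4 and 6 in untreated KO and 46, 69 and 331 in CCl4 KO samples. In CPM the CCl4 KO samples read 2.75, 2.47 and 26.1, and the CCl4 WT samples 1.31, 1.39, 0.856, 4.73 and 1.78. In both genotypes every CCl4 sample lay above every untreated sample. CCl4 raised Mylip in the KO by a log2 fold change of 5.40 ± 0.91 (SE; edgeR adjusted p = 0.000932), and the call held without any 1 sample, with 3.40 when the CCl4 KO replicate 3 was left out. The untreated KO samples held 14 Mylip counts in sum, so the size of this rise rests on few reads. Every untreated count was under 10, the minimum count of the filter, so Mylip passed that filter only with the CCl4 samples. In WT the rise of 2.27 ± 0.72 was not called (adjusted p = 0.152), except with unscaled library totals (adjusted p = 0.0397), and the difference between genotypes, 3.13 ± 1.13, was not called either (adjusted p = 0.155). After CCl4 the KO was above WT by 2.36 ± 0.72 (adjusted p = 0.0425), but this rested on 1 library: without the CCl4 KO replicate 3 it was 0.37 (adjusted p = 0.848). The call was lost in 10 of the 17 fits that left out 1 sample, and with voom (adjusted p = 0.145).

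Macrophage, endothelial and stellate markers were higher with CCl4 in the KO, but not those of every other cell type. Of 3 cholangiocyte markers tested, 0 were called. Of 9 hepatocyte markers, 2 were called lower. Of 7 neutrophil and erythroid markers in the count table only Alas2 was tested, and it was called lower (-1.62). The others were at 0 in many untreated samples, while none of the 7 was at 0 in the CCl4 KO replicate 3. None of the 8 lymphocyte markers was tested. They summed to 8.19 CPM in that replicate and to 0.120 and 0.286 CPM in the other CCl4 KO samples. In untreated KO samples the sum was at most 0.275 CPM. Of 15 macrophage markers tested, 15 were called higher with CCl4 in the KO, with a median log2 fold change of 8.67, and so were 11 of 12 endothelial and 9 of 10 stellate markers. Without the CCl4 KO replicate 3 these counts were 13, 6 and 6, and the macrophage median was 5.62. Of 12 stellate markers in the count table, 10 passed the filter on low counts. Genes this low in untreated samples pass that filter mainly through samples where they are high. All 15 macrophage markers together summed to only 0.342 to 10.1 CPM in untreated KO samples, so the size of their median rests on few reads. The sample with most Mylip in each CCl4 group, replicate 3 of the KO and replicate 4 of WT, was also the sample with the highest macrophage sum, 5426 and 125 CPM. CCl4 KO replicates 1 and 2 were close in Mylip. Replicate 2 had the higher macrophage sum (337 against 120 CPM) and the slightly lower Mylip level (2.47 against 2.75 CPM). The macrophage sums of CCl4 WT replicates 1 to 5 were 19.9, 55.5, 13.2, 125 and 46.3 CPM. Their order was that of the Mylip levels given above, except that replicates 2 and 5 changed places. The endothelial sum of the sample with most Mylip was the highest of the group, 993 and 183 CPM. The part of these cells in the Mylip values was not tested.

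Stard4, which carries cholesterol between membranes, and Soat2, which esterifies it in hepatocytes, were not called. Soat2 was lower in the 3 CCl4 KO samples (30.6, 21.6 and 28.8 CPM) than in the 5 CCl4 WT samples (38.0, 44.0, 35.2, 36.1 and 32.3 CPM), a log2 difference of -0.46 ± 0.18 (edgeR adjusted p = 0.122), and without the CCl4 KO replicate 3 it was -0.51 (adjusted p = 0.226). Stard4 differed in the same comparison by -0.59 ± 0.31 (adjusted p = 0.242), and by -0.44 without that replicate.

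In 3 of the 4 groups the enzymes' summed level ranged more widely between samples than the group means did. Summed over the 19 synthesis enzymes, untreated WT samples read 2536, 2336, 1214, 2360.2 and 1410.1 CPM, CCl4 WT samples 1957, 1983, 1758, 1790.5 and 1626 CPM, untreated KO samples 1194, 2294, 1739 and 1247 CPM, and CCl4 KO samples 1196, 2187 and 1008 CPM. The 5 CCl4 WT samples lay close together between the high and the low samples of the other 3 groups. The means were 1971 ± 611 (SD, n = 5), 1823 ± 148 (n = 5), 1619 ± 513 (n = 4) and 1464 ± 634 (n = 3). Without the untreated WT replicate 5 and the CCl4 KO replicate 3 the means of those groups were 2112 ± 605 (n = 4) and 1692 ± 701 (n = 2).

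**Figure D4:**
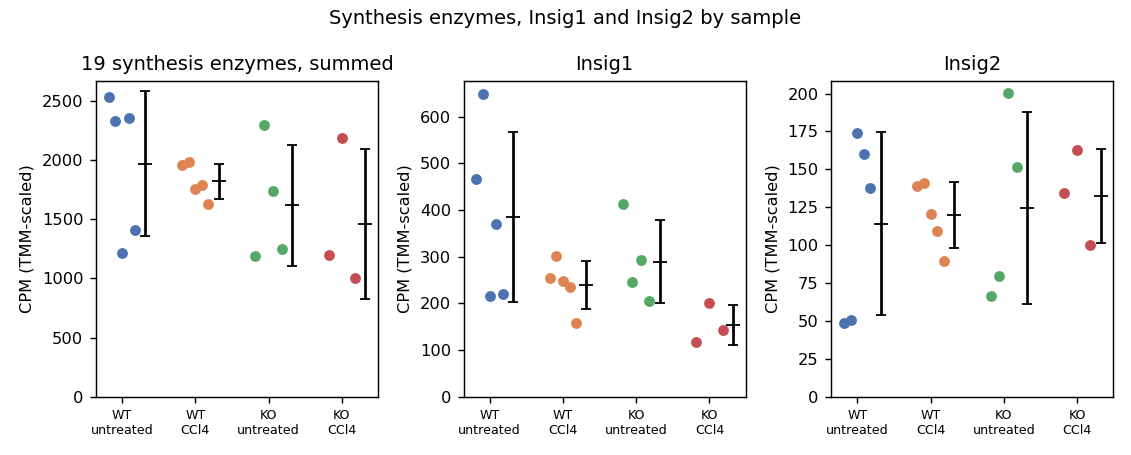
CPM summed over the 19 synthesis enzymes (left), and CPM of Insig1 and Insig2, in each sample (dots) by group, with mean ± SD as bars beside the dots. The CCl4 WT samples are close together, between 1626 and 1983 CPM for the enzymes, while untreated WT samples range from 1214 to 2536 CPM.

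The order of the samples was shared by many enzymes. In untreated WT, replicate 3 was the lowest sample for 14 of 19 enzymes and among the lowest 2 for 19 of 19, replicate 5 was among the lowest 2 for 18, and replicate 1 was the highest for 13. In untreated KO, replicate 2 was the highest for 14 and replicate 1 the lowest for 13. In CCl4 KO, replicate 2 was the highest for 16 and replicate 3 the lowest for 11. In CCl4 WT the highest place was spread over replicates 1 to 4, with at most 6 enzymes each. Insig1 followed the enzymes in untreated WT, where replicates 3 and 5 were lowest, but not in untreated KO, where replicate 1 had the highest Insig1 and the lowest enzyme sum. These orders are across genes of the same libraries, which are not independent. Mitochondrial shares of the untreated WT replicates 1 to 5 were 12.9%, 20.1%, 10.2%, 5.32% and 30.7%, and their part in the order was not tested.

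The spread was measured per gene as the highest over the lowest sample of a group. In untreated WT its median over the 19 enzymes was 2.65, and 15 of 19 differed at least 2-fold, against a median of 1.97 and 48.9% of all tested genes. In CCl4 WT the median was 1.43 and 2 of 19 (10.5%) reached 2-fold, against 1.74 and 37.8% of all genes. Medians of the enzymes in untreated and CCl4 KO samples were 2.29 and 2.18, with 12 of 19 at 2-fold or more in each, against 1.74 and 1.86 for all genes. Between groups of equal size, the SD of the log2 level was smaller in CCl4 WT than in untreated WT for 18 of 19 enzymes (94.7%), against 63.0% of all tested genes. Between CCl4 and untreated KO it was smaller for 8 of 19 (42.1%), against 37.5%. Without the untreated WT replicate 5 the untreated WT median stayed at 2.65 with 15 of 19 at 2-fold or more, against 1.76 and 41.2% of all genes, and the SD was again smaller in CCl4 WT for 18 of 19, against 57.7%. Without the CCl4 KO replicate 3 the CCl4 KO median was 1.68 with 6 of 19 at 2-fold or more, against 1.31 and 16.6% of all genes, and the SD was smaller than in untreated KO for 11 of 19 (57.9%), against 59.6%. Mvd (5.41-fold) and Sqle (4.69-fold) spread most in untreated WT, and Ebp spread least (1.19-fold).

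**Figure D5:**
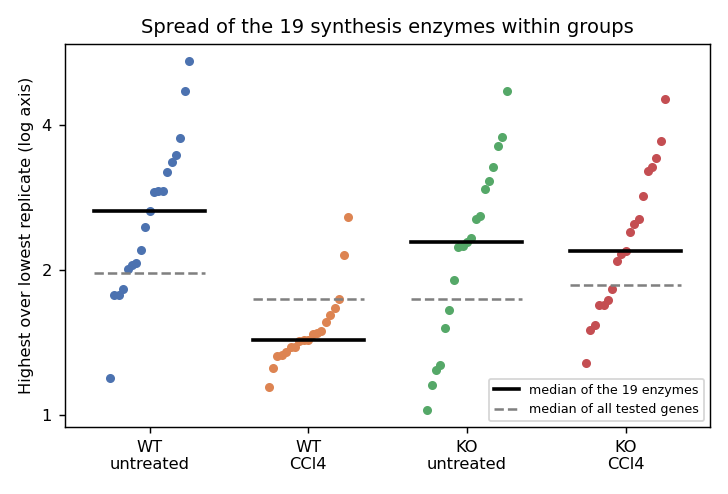
Highest over lowest sample (log axis) for each of the 19 synthesis enzymes (dots, sorted) in the 4 groups, with the median of the enzymes (solid line) and of all tested genes (dashed line). The enzymes' median lies above that of all genes in 3 groups, and below it in CCl4 WT (1.43 against 1.74).

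Levels per kilobase of exon rank the members in untreated WT. Insig1 led at 124 ± 58.8 CPM per kilobase (SD, n = 5), followed by Ebp at 80.4 ± 6.32 and Sc5d at 76.2 ± 19.7. Idi1 (41.8), Hmgcs1 (39.1) and Fdps (36.5) came next, with SDs of 14.5 to 18.8, and did not differ beyond their spread. Srebf2 (6.68 ± 0.925), Lss (4.77 ± 1.62), Ggps1 (0.785 ± 0.182) and Mylip (0.127 ± 0.0509) closed the order. The merged exons of Lss, 10787 bases, are the longest among the members and lower its value.

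Genes around the pathway were read from 4 lists of 12 or 14 genes. Of all tested genes, CCl4 in the KO called 12.1% higher and 6.96% lower, and the KO after CCl4 7.62% higher and 4.21% lower. In lists this small, 1 or 2 calls lie near these shares, and no gap from them was tested. Of 12 genes that process or sense SREBPs, 1 was called lower with CCl4 in the KO, the sterol-binding membrane protein Pgrmc1 (-0.56 ± 0.16, edgeR adjusted p = 0.0199). Pgrmc1 was also lower in the KO than WT after CCl4 (-0.77 ± 0.15, adjusted p = 0.00493), with 479 ± 85.4 CPM (SD, n = 3) against 814 ± 104 CPM (n = 5), and this second call held without any 1 sample but was lost with unscaled totals (adjusted p = 0.0552). Without the CCl4 KO replicate 3 the first was -0.42 (adjusted p = 0.104), and with the replicate block its adjusted p was 0.0664.

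Of 14 genes of cholesterol efflux, esterification and transport, 4 were called lower and 2 higher with CCl4 in the KO. The 2 higher lie near the share of all tested genes (12.1%). The 4 lower lie above theirs (6.96%), a gap of few genes that was not tested. Abcg8 and Abcg5, the paired transporter that secretes sterols into bile, were lower by -1.79 ± 0.35 (edgeR adjusted p = 0.00210) and -1.77 ± 0.42 (adjusted p = 0.00691). Abcg8 averaged 37.0 ± 8.21 CPM (SD, n = 3) against 128 ± 71.2 CPM (n = 4). The sterol carrier Stard5 was lower by -0.93 ± 0.21 (adjusted p = 0.00535), and Lcat, the plasma esterifying enzyme, by -0.60 ± 0.14 (adjusted p = 0.00747). These 4 calls held without any 1 sample, while those of Lcat and Stard5 were lost with unscaled totals (adjusted p = 0.0919 and 0.101). With the 2 groups fitted alone, Abcg5, Stard5 and Lcat missed the threshold (adjusted p = 0.0605, 0.0814 and 0.1003), and Abcg8 did not. Soat1 and Abcg1, esterifying enzyme and exporter of macrophages, were higher by 3.68 ± 0.87 and 2.68 ± 0.76. Without the CCl4 KO replicate 3 they were at 1.93 (adjusted p = 0.127) and 1.09 (adjusted p = 0.343). After CCl4 the same 2 genes were above WT, by 3.35 ± 0.78 and 2.43 ± 0.70 (adjusted p = 0.0113 and 0.0324), and at 1.60 and 0.83 without that replicate (adjusted p = 0.269 and 0.578). With voom neither gene was called in either comparison: the adjusted p was 0.0681 for Soat1 and 0.108 for Abcg1 with CCl4 in the KO, and 0.0712 and 0.112 after CCl4. Neither passed for CCl4 in the KO with the 2 groups alone (0.0539 and 0.0776). Abcg1 was also lost with the replicate block (0.0606 and 0.145) and, after CCl4, with unscaled totals (0.0603) and the 2 groups alone (0.0550). The macrophage markers moved as given for Mylip, and their part in these values was not tested.

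The 12 genes of the isoprenoid branches gave 0 calls in edgeR, with 1 to 4 genes at an unadjusted p under 0.05 in each comparison, and voom called 0, while DESeq2 called 1 lower with CCl4 in the KO. Of 12 genes of acetyl-CoA supply and fatty acid synthesis, 1 was called, the fatty acid elongase Elovl6, lower in the KO after CCl4 (-1.35 ± 0.39, edgeR adjusted p = 0.0317). Without the CCl4 KO replicate 3 Elovl6 was at -1.002 (adjusted p = 0.167). Its call was lost in 5 of the 17 fits that left out 1 sample. It was also lost with unscaled totals (adjusted p = 0.0830) and with the 2 groups alone (0.0861). For CCl4 in the KO, edgeR called 0 of these 12, with 2 at an unadjusted p under 0.05, DESeq2 1 and voom 0. For CCl4 in WT, the untreated KO and the contrast of CCl4 effects, edgeR called 0 genes of the 4 lists, with 0 to 5 genes per list at an unadjusted p under 0.05. DESeq2 called 1 efflux gene higher for CCl4 in WT and 1 in that contrast, and voom called 0 in these comparisons.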

How the data were processed

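RNA was sequenced from FACS-sorted hepatocytes; the authors deposited 1 table of whole-number read counts per gene, with 1 column per sample. Per the submitters' processing notes, STAR 2.4.1d and mm10 were used, and FastQC, DESeq2, edgeR and limma are also named. How reads were counted, with which strand setting and annotation, is not given in the sources used here. Symbols and positions were matched for 22929 of 23461 identifiers (GENCODE vM21, mm10), and no sample was left out.

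Tests used edgeR 4.0.16 (R 4.3.3): filterByExpr (minimum count 10, minimum total 15), TMM scaling, 1 mean per group over all 17 samples, robust quasi-likelihood F tests and Benjamini-Hochberg adjustment over 13721 genes. The SE is the absolute log2 fold change divided by the root of F, and 95% intervals use 13 residual degrees of freedom. Totals of 11266420 to 24775863 counts limit precision mainly for Mylip. Alternatives were other scalings and filters, DESeq2 1.42.0, limma 3.58.1 voom, the compared groups alone, a replicate block and leaving out each sample; 3 others, chosen after seeing the data, left out libraries of over 30% mitochondrial counts, left out mitochondrial genes, or read the enzymes' spread without single libraries. The procedure was tested on simulated data.

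The members and lists were chosen with earlier results of these data known. Every member is described, with values in every sample for those called in a test and for the member of smallest p in the role groups with no call; of each related list, up to 3 called genes of smallest adjusted p per comparison are named. The values per sample of Insig1, Insig2 and Soat2, and Lcat, were added after they were seen.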

Additional observations from a re-analysis of the deposited data

Results flagged for a closer look

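Dixon's test for a sample far from the rest of its group was applied to 78 groups of 4 or 5 samples, 1 for each member and group, and marked 3, where chance marks about 1 in 20. Srebf2 in the untreated KO replicate 3 was 48.4 CPM, with the nearest other sample at 42.9 CPM. Scap in the untreated WT replicate 2 was 108 CPM, the lowest of its group, with the nearest at 147 CPM. Stard4 in the CCl4 WT replicate 5 was 149 CPM, with the nearest at 82.4 CPM.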

How the results depend on the processing

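No called log2 fold change reversed under any alternative run. RLE factors, upper-quartile factors, a minimum of 1 CPM in 3 samples, and leaving out mitochondrially encoded genes moved none of the 36 results. Called genes stayed on their side of the threshold, counts stayed within 1.5-fold and medians within the spread between samples. Unscaled library totals put the median log2 change of all genes at 0.38 (CCl4 in WT), 0.20 (CCl4 in the KO) and 0.14 (untreated KO). Of the calls for CCl4 in WT, 94.8% were then higher.

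Genes called for CCl4 in WT (117) became 651 with library totals, 494 with DESeq2, 49 with the replicate block and 187 without the 2 libraries of over 30% mitochondrial counts. Those for CCl4 in the KO (2610) became 1273 with the compared groups alone. Those for the untreated KO (128) became 328 with DESeq2. Those for the KO after CCl4 (1622) became 867 with the block and 555 without the 2 libraries. Those for the difference of CCl4 effects (150) became 28 with library totals, 33 with no filter, 783 with DESeq2, 9 with voom, 3 with the block and 9 without the 2 libraries. Among members, CCl4 in WT gave 1 higher (Mylip) with library totals and 1 lower (Tm7sf2) with DESeq2. CCl4 in the KO gave 1 lower in place of 2 with library totals, no filter, the compared groups alone and without the 2 libraries, and 0 higher with DESeq2, which gave Mylip no adjusted p. The KO after CCl4 gave 0 higher with library totals, DESeq2, voom, the compared groups alone, the block and without the 2 libraries, and 0 lower without the 2 libraries. With the block, CCl4 in the KO called Tm7sf2 and Insig1 lower in place of Tm7sf2 and Scap. The contrast of CCl4 effects has no fit with the compared groups alone, since it uses all 4. The cause was not tested.

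Leaving out 1 sample gave 63 to 179 calls for CCl4 in WT, 1666 to 3079 for CCl4 in the KO, 89 to 152 for the untreated KO, 418 to 2216 for the KO after CCl4 and 0 to 867 for the difference. Members called lower with CCl4 in the KO were 1 to 2. After CCl4 the KO gave 0 to 1 members higher and 0 to 2 lower. The labels state that replicate numbers do not pair samples. Each sample's deviations from its group mean, gene by gene, were correlated between samples of different groups. Same-numbered samples had a mean correlation of -0.02 over 22 pairs, against 0.006 for pairs with other numbers. Of 17 samples, 1 correlated best with its own number.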
